A study of Mus musculus with 6 samples.

Results

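The genes of hepatic glucose output G6pc, Slc37a4, Pck1, Gpt1 and Ppargc1a were followed on every array of the series. They were taken by gene symbol from the platform annotation, where all 5 symbols matched, and they carried 7 of the 29922 probes and 5 of the 16675 gene symbols. Pck1 and Ppargc1a had 2 probes each, numbered here from the brighter to the dimmer over the 6 arrays, and the other 3 genes had 1 probe each. All mice were ob/ob (B6.V-Lepob/J), a strain without functional leptin that becomes obese and insulin resistant. The treated mice received MCSE, a water extract of bitter melon (Momordica charantia) seeds, and the controls received phosphate-buffered saline (PBS), in both cases by mouth after a fast of 4 h and 15 min ahead of a glucose injection of 1 g/kg. Liver, adipose tissue and muscle were taken 4 h after the glucose, and 1 one-colour array was made for each tissue and treatment, 6 in all. The labels gave neither the age of the mice nor how many mice stand behind an array, so a difference between MCSE and PBS rests on 2 arrays, without replicates and without a p-value.

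Liver and kidney release glucose into the blood when food is absent, making it from lactate, glycerol and amino acids. Pck1 encodes the cytosolic phosphoenolpyruvate carboxykinase, an early committed step of this route. G6pc encodes the catalytic subunit of glucose-6-phosphatase, which frees glucose in the last step, and Slc37a4 encodes the transporter that brings glucose 6-phosphate to it across the membrane of the endoplasmic reticulum. Gpt1 (now Gpt) encodes alanine aminotransferase, through which alanine enters as pyruvate, and Ppargc1a encodes a transcriptional coactivator that fasting signals raise in liver. Insulin lowers the transcripts of G6pc and Pck1, in part by removing FOXO1 from the nucleus, whereas glucagon raises G6pc, Pck1 and Ppargc1a through cAMP and CREB. Kidney proximal tubule cells contain G6pc, Pck1 and Slc37a4 too.

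The promoters of the genes at the end, the start and the regulation of the route are shown. The G6pc window holds copies of a FOXO core, and the Pck1 and Ppargc1a windows hold a cAMP response core. Each window runs from 250 bases before to 50 bases after the annotated start, 5′ to 3′ on the strand of the gene, from RefSeq on GRCm38.p6. The windows lie at chr11:101367466-101367765 (plus strand), chr2:173152823-173153122 (plus strand) and chr5:51567676-51567975 (minus strand). Capitals mark the FOXO core TGTTT and the cAMP response element (CRE) core TGACG, each searched on both strands.
G6pc: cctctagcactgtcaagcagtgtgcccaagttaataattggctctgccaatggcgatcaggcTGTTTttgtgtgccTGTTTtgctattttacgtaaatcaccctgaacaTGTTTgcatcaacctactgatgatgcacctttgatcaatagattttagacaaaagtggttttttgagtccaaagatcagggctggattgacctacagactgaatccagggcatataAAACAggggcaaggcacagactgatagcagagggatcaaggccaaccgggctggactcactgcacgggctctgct
Pck1: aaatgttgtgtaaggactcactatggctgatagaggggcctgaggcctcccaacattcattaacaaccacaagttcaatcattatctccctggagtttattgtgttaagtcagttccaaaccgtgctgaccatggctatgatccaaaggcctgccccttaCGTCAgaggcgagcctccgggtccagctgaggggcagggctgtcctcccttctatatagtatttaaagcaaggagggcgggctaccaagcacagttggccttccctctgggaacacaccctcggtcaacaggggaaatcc
Ppargc1a: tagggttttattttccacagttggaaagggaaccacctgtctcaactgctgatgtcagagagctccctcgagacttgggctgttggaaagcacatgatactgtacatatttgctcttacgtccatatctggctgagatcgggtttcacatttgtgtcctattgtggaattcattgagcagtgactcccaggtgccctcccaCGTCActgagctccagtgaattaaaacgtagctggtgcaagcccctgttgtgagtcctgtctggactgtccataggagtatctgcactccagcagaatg
The G6pc window held 4 copies of the FOXO core, which began 188, 174, 141 and 25 bases upstream of the start. The copy nearest the start is on the opposite strand and overlaps the TATA box TATAAA. At least 1 copy of TGTTT stood in 50.54% of the 32851 windows of this length and at least 4 in 3.24%. The Pck1 window held 1 CRE core, on the opposite strand, beginning 90 bases upstream, and the Ppargc1a window held 1, also on the opposite strand, beginning 49 bases upstream. A CRE core stood in 20.81% of all windows, and the full element TGACGTCA, which none of the 3 windows held (0), in 1.79%. The G6pc window held 0 CRE cores, and the Pck1 and Ppargc1a windows held 0 FOXO cores. Of the 5 genes, 4 had a window, Slc37a4 with 3 start sites. The Slc37a4 windows, not shown, held 1, 2 and 0 CRE cores and 1, 0 and 2 FOXO cores at start sites 1, 2 and 3.

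Before the treatments are compared, the labels need a caveat. Both muscle arrays carried fast-fibre genes at a median log2 intensity of 15.85 (MCSE) and 15.98 (PBS), against 9.44 or less on the other 4. The arrays labelled liver and the MCSE adipose array carried hepatocyte, adipocyte and kidney genes side by side. The median of 11 hepatocyte markers was 11.87 (MCSE) and 12.29 (PBS) on the liver arrays. On the muscle arrays it was 9.01 (MCSE) and 9.35 (PBS). Of these markers Ahsg and Cps1, named after their values were seen, were brightest on the PBS adipose array, at 12.79 and 11.20. On the liver arrays Ahsg gave 10.27 (MCSE) and 10.10 (PBS), and Cps1 9.60 (MCSE) and 10.25 (PBS). Lep, the fat cell hormone, reached 15.93 (MCSE) and 15.04 (PBS) on the liver arrays. The muscle arrays carried adipocyte genes too, with Lep at 12.94 (MCSE) and 12.98 (PBS). The median of the adipocyte list was 12.89 (MCSE) and 12.75 (PBS) on the muscle arrays, against 14.97 (MCSE) and 14.59 (PBS) on the liver arrays. The MCSE adipose array was nearly a copy of the MCSE liver array (Pearson r = 0.982 over all probes), and the PBS adipose array correlated with the others at 0.307 to 0.517. "Liver", "adipose" and "muscle" therefore name labels. On each array the median of all probes was 8.95 and the top of the scale 16.41 in log2 units. In such bulk RNA, fewer cells of a type and less RNA per cell cannot be told apart.

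G6pc, the enzyme that frees glucose, was 2.87-fold higher with MCSE on the liver arrays. Its log2 intensity was 14.25 (MCSE) and 12.72 (PBS) on the liver arrays, 14.28 (MCSE) and 12.09 (PBS) on the adipose arrays, and 10.80 (MCSE) and 10.11 (PBS) on the muscle arrays. The MCSE liver and MCSE adipose arrays were thus the brightest pair, 0.03 apart, and both muscle arrays the dimmest. The liver difference of 1.52 on the log2 scale exceeded that of 97.1% of measured probes. As a gauge of error, the SD per probe of such a difference, estimated from 1653 genes with 2 measured probes, was 0.607 on the liver arrays and 0.519 on the muscle arrays. It reflects the error of probes and unequal transcript variants, but not the variation from mouse to mouse. The G6pc difference was 2.51 times the gauge on the liver arrays and, at 0.70, 1.35 times the gauge on the muscle arrays.

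Slc37a4, the glucose 6-phosphate transporter that works with G6pc, was 2.49-fold higher with MCSE on the liver arrays. It lay at 13.45 (MCSE) and 12.13 (PBS) on the liver arrays, 13.54 (MCSE) and 9.87 (PBS) on the adipose arrays, and 12.99 (MCSE) and 13.18 (PBS) on the muscle arrays. Unlike G6pc, it was as bright on the muscle arrays as on the MCSE liver array, to within 0.46, and the PBS liver array was the second dimmest of the 6. The PBS liver array lay 0.857 below the lowest of the MCSE liver, MCSE adipose and both muscle arrays. The liver difference was 1.32, or 2.17 times the gauge, and the muscle difference was -0.19.

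Pck1, the best known target of hormonal control in this route, differed little on the liver arrays and in opposite directions on its probes. Probe 1 lay at 15.14 (MCSE) and 14.93 (PBS) on the liver arrays, a difference of 0.21. On the adipose arrays it gave 15.62 (MCSE) and 8.84 (PBS), and on the muscle arrays 14.29 (MCSE) and 13.85 (PBS). Both liver arrays were among the 3 brightest for this transcript, and the PBS adipose array fell 0.11 short of the median of all probes.

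Probe 2 of Pck1 gave 15.34 (MCSE) and 15.74 (PBS) on the liver arrays, a difference of -0.40. The adipose arrays gave 15.47 (MCSE) and 8.11 (PBS), and the muscle arrays 11.93 (MCSE) and 10.99 (PBS). Neither liver difference passed the gauge. Both probes sat above the 99th percentile of intensity on the liver arrays, at 99.5 (MCSE) and 99.3 (PBS) for probe 1 and at 99.6 (MCSE) and 99.8 (PBS) for probe 2. The muscle arrays set the probes apart more than the treatments did, since probe 2 was far dimmer there than on the liver arrays and probe 1 was not.

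Gpt1, the alanine aminotransferase, was the one gene of the 5 that was 2-fold lower with MCSE on the liver arrays. It lay at 12.39 (MCSE) and 13.39 (PBS) on the liver arrays, 12.17 (MCSE) and 9.49 (PBS) on the adipose arrays, and 11.02 (MCSE) and 10.91 (PBS) on the muscle arrays. Here the PBS liver array was the brightest of the 6. The difference of -1.001 was 1.65 times the gauge in size and lay just past the 2-fold limit. Centring the differences on their median, removing their trend with brightness or adding 32 before log2 each left 0 of the 7 probes 2-fold lower. The muscle difference was 0.11.

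Ppargc1a, the coactivator, gave the steepest difference of the 7 probes on the liver arrays. Probe 1 lay at 10.70 (MCSE) and 8.96 (PBS) on the liver arrays, 10.53 (MCSE) and 8.14 (PBS) on the adipose arrays, and 11.06 (MCSE) and 11.71 (PBS) on the muscle arrays. The muscle arrays were the brightest, and the PBS liver array stood at the median of all probes (percentile 50.2) where the MCSE liver array stood at percentile 81.4. The liver difference was 1.74, a 3.34-fold ratio and 2.87 times the gauge, and the muscle difference was -0.65. The PBS liver array lay 1.57 below the lowest of the MCSE liver, MCSE adipose and both muscle arrays. Of the 1432 measured probes 2-fold higher on the MCSE liver array, 680 (47.5%) had a PBS liver value at least 2-fold below those same 4 arrays, and Ppargc1a probe 1 was one of them, whereas G6pc and Slc37a4 were not.

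Probe 2 of Ppargc1a was dim. It gave 8.99 (MCSE) and 8.43 (PBS) on the liver arrays, 8.84 (MCSE) and 9.01 (PBS) on the adipose arrays, and 8.92 (MCSE) and 9.44 (PBS) on the muscle arrays. All 6 values lay within 1.01 of each other around the median of all probes. The differences of 0.56 on the liver arrays and -0.52 on the muscle arrays had the signs of probe 1 and did not pass the gauge on the liver arrays.

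**Figure D1:**
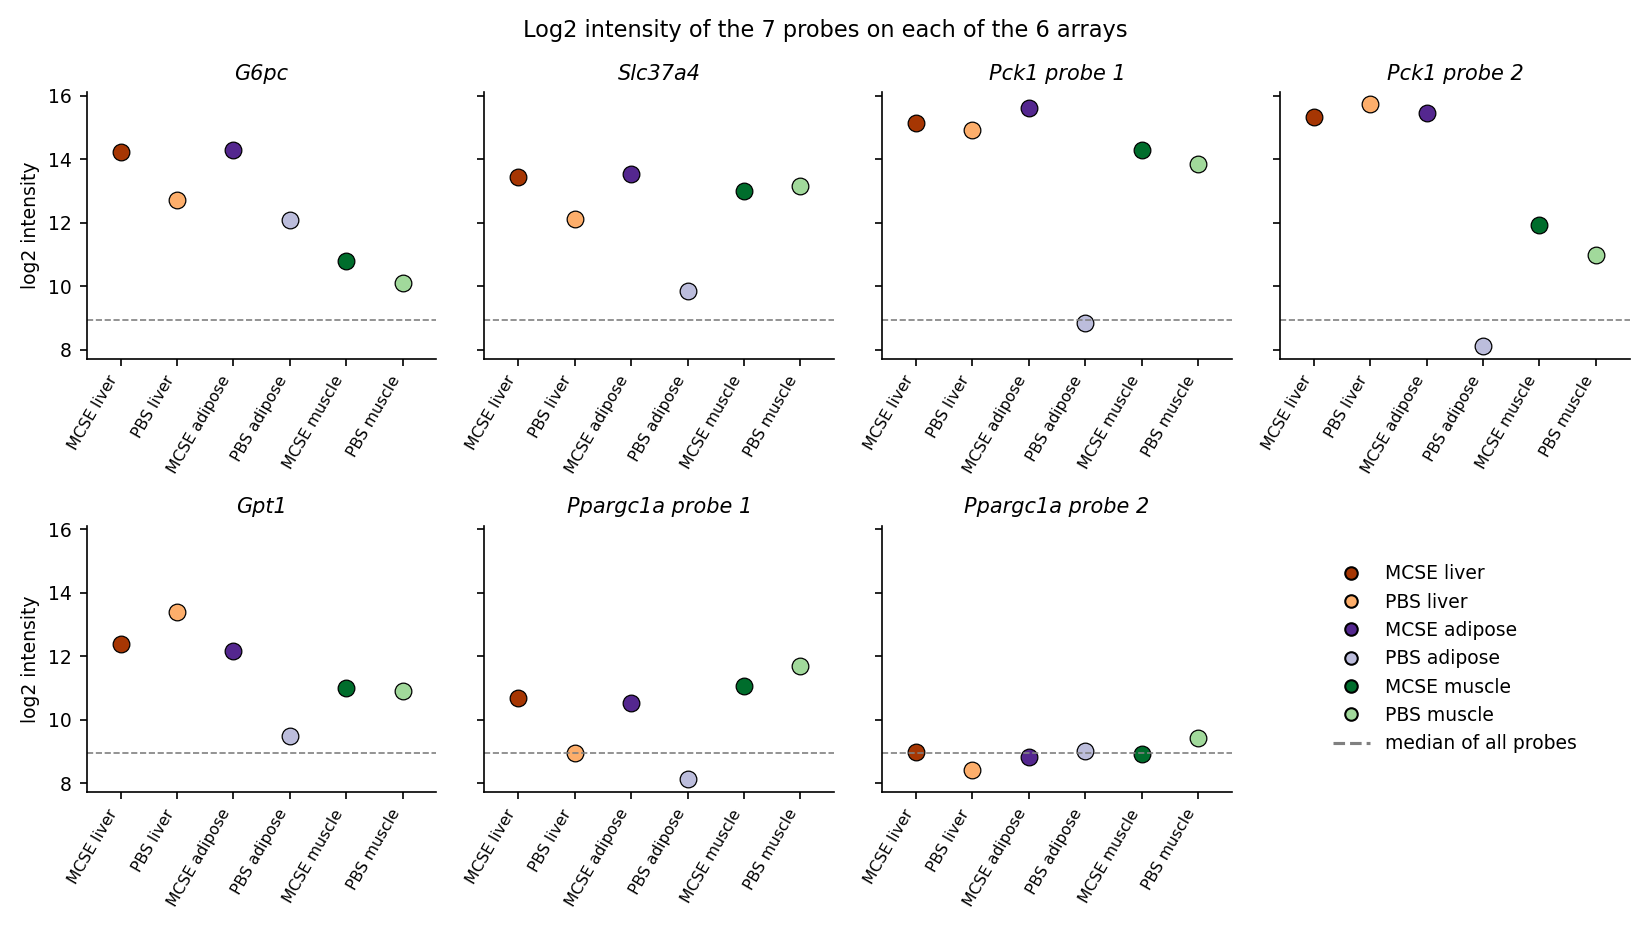
Log2 intensity of each of the 7 probes (vertical axis) on each of the 6 arrays (horizontal axis), 1 point an array, with the median of all probes (8.95) as a dashed line. G6pc and both Pck1 probes are brighter on the liver arrays than on the muscle arrays, Ppargc1a probe 1 is brightest on the muscle arrays, and the PBS adipose array is the dimmest for 5 of the 7 probes.

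A probe counted as measured if at least 1 of the 2 compared arrays showed it at or above that array's median (8.95). All 7 probes did so on the liver arrays, 6 of them on both arrays. Ppargc1a probe 2 passed through the MCSE array alone. Of the 7 probes, 3 (42.9%) were at least 2-fold higher with MCSE on the liver arrays and 1 (14.3%) was 2-fold lower. Over all 16880 measured probes the shares were 8.48% higher and 6.37% lower. The median of the 7 differences, 0.56, is the value of Ppargc1a probe 2 itself, the probe that the filter kept through its MCSE value, and over all measured probes the median was -0.04. The 3 genes past 2-fold upward stand for the last enzyme, its transporter and the coactivator, and the gene of the early step, Pck1, was not among them.

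On the muscle arrays 0 of the 7 probes passed 2-fold in either direction, where 6.43% of 16073 measured probes did. G6pc (0.70) and Pck1 probe 2 (0.95) were higher by more than the gauge, and Ppargc1a probe 1 (-0.65) and, barely, probe 2 (-0.52) were lower by more than it. For 5 of the 7 probes the sign on the muscle arrays was opposite to that on the liver arrays, as it was for 38.2% of the 13898 probes measured on both pairs. Of these 5, Ppargc1a probe 1 alone differed by more than the gauge on both pairs, as did 2.24% of all probes measured on both. The MCSE and PBS adipose arrays differed by 2-fold or more in 71.6% of 20703 measured probes, so their differences are not interpreted. On them 6 of the 7 probes were higher with MCSE, by 2.19 (G6pc) to 7.36 (Pck1 probe 2), and Ppargc1a probe 2 gave -0.17.

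**Figure D2:**
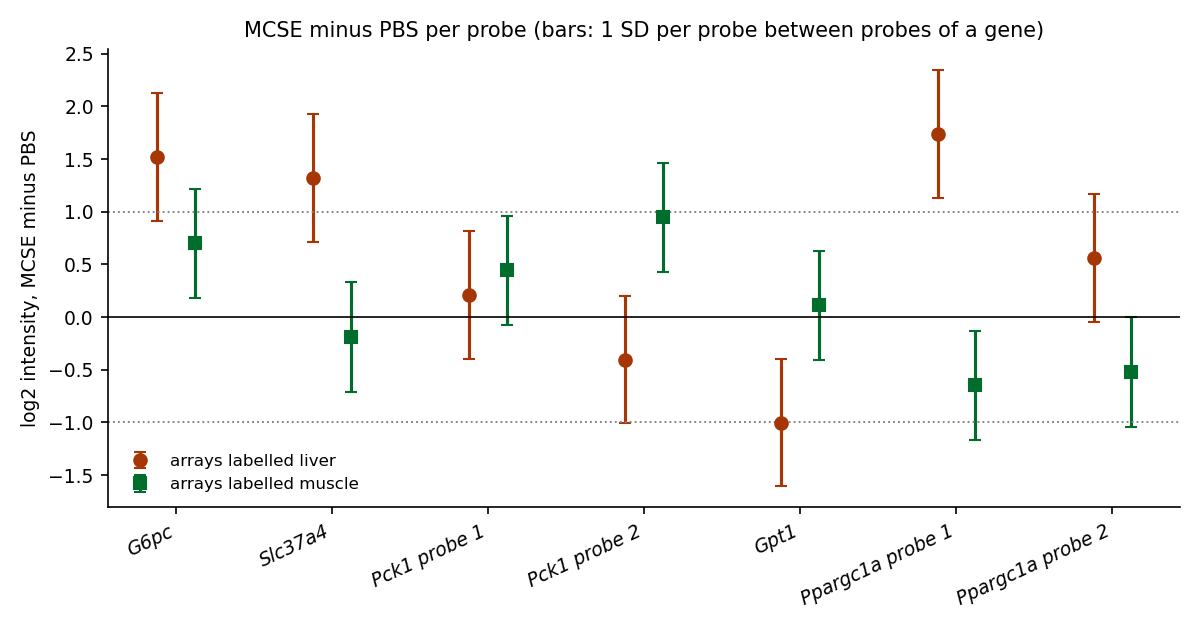
Difference in log2 intensity, MCSE minus PBS (vertical axis), for each of the 7 probes (horizontal axis) on the arrays labelled liver (circles) and muscle (squares). Each point is 1 pair of arrays, the bars are 1 SD per probe from pairs of probes of the same gene (0.607 for liver, 0.519 for muscle), and the dotted lines mark 2-fold. G6pc, Slc37a4 and Ppargc1a probe 1 lie above 2-fold on the liver arrays, and 0 probes lie past 2-fold on the muscle arrays.

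The MCSE adipose array offers a second reading close to the MCSE liver array, although it cannot count as a replicate of a liver group. On it the 7 probes lay within 0.47 of the MCSE liver array, the largest gap being that of Pck1 probe 1. Set against the PBS liver array, the MCSE adipose array gave 1.56 for G6pc, 1.40 for Slc37a4, 1.57 for Ppargc1a probe 1 and -1.22 for Gpt1. Pck1 gave 0.69 on probe 1, which passed the liver gauge there and not on the liver arrays, and -0.27 on probe 2, and Ppargc1a probe 2 gave 0.41. These values share the PBS liver array with the differences above.

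Kidney also makes and exports glucose, and its markers were higher on the same MCSE liver array. Of 11 proximal tubule markers, all measured, 6 were 2-fold higher with MCSE and 0 lower, with a median difference of 1.03 (range -0.02 to 1.88). All 11 lay at or above the array median on the MCSE liver array, and 9 did on the PBS liver array. Slc5a12, which is among the 6, and Slc22a8 passed the filter through their MCSE values alone. Of 6 measured markers of other kidney segments, 3 passed 2-fold upward and 0 downward (median 1.06). Slc34a1, the phosphate transporter of the proximal tubule, lay at 15.44 (MCSE) and 14.24 (PBS) on the liver arrays. Lrp2, the endocytic receptor megalin, lay at 12.09 (MCSE) and 10.20 (PBS) on the liver arrays, and Umod, of the thick ascending limb, at 14.27 (MCSE) and 12.47 (PBS). Kap, an androgen-regulated tubule transcript, did not differ by more than the gauge, at 16.05 (MCSE) and 16.07 (PBS) on the liver arrays, near the top of the scale. The part of kidney RNA in the differences of G6pc, Slc37a4 and Ppargc1a was not tested.

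Hepatocyte markers did not move as one. Of 11, 1 was 2-fold higher (Cyp2e1, 1.18) and 1 was 2-fold lower (Fgb, -1.45), with a median difference of -0.06 (range -1.45 to 1.18). Both of these were singled out after their values were seen. Alb, serum albumin, gave 15.36 (MCSE) and 15.79 (PBS) on the liver arrays, and Ttr, transthyretin, 14.20 (MCSE) and 14.13 (PBS). The median level of the proximal tubule list was 12.66 (MCSE) and 11.33 (PBS) on the liver arrays, 12.54 (MCSE) and 9.03 (PBS) on the adipose arrays, and 9.26 (MCSE) and 8.57 (PBS) on the muscle arrays. The liver differences of G6pc, Slc37a4, both Ppargc1a probes and Pck1 probe 1 lay within the range of the proximal tubule markers. Those of Pck1 probe 2 and Gpt1 lay below it. Within the hepatocyte range lay both Pck1 probes, Gpt1 and Ppargc1a probe 2, and above it G6pc, Slc37a4 and Ppargc1a probe 1. Of 7 adipocyte markers 1 was 2-fold higher, with a median of 0.09, and of 5 macrophage markers 1 was 2-fold higher, with a median of 0.27. Of 4 measured markers of intestinal epithelium 1 was 2-fold higher, with a median of 0.44 (range -0.13 to 1.54). That 1 marker, Cdx1, reached the array median on the MCSE liver array alone. The part of adipocyte RNA in the Pck1 values, on the liver and the muscle arrays, was not tested.

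**Figure D3:**
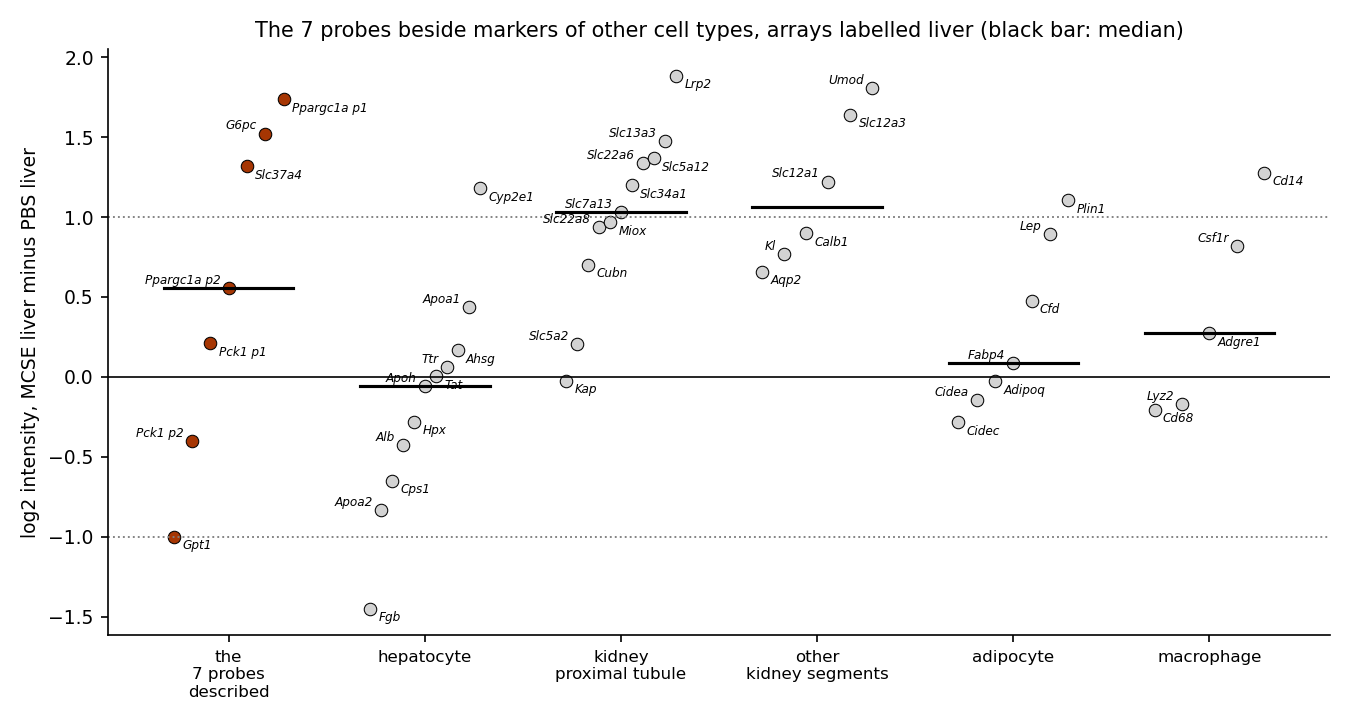
Difference in log2 intensity, MCSE liver minus PBS liver (vertical axis), for the 7 probes and for the measured markers of 5 cell types (horizontal axis), 1 point a probe or gene, with each list's median as a black bar and 2-fold as dotted lines. The kidney lists have medians of 1.03 and 1.06, the hepatocyte list -0.06, and p1 and p2 stand for probes 1 and 2.

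Among the other transcripts of glucose release, none passed 2-fold on the liver arrays. Slc2a2, the glucose exporter GLUT2 of the hepatocyte and proximal tubule membrane, differed by 0.41, at 12.13 (MCSE) and 11.72 (PBS) on the liver arrays. G6pc3, the widely expressed relative of G6pc, differed by 0.06, at 10.20 (MCSE) and 10.14 (PBS). The 2 of 4 glucose release genes past 2-fold were therefore G6pc and Slc37a4 themselves.

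Of the enzymes that lead up to glucose 6-phosphate, 13 were measured on the liver arrays, and 0 were 2-fold higher or lower (median 0.17). Pcx, pyruvate carboxylase, the step ahead of Pck1, came nearest at 0.93, with 12.59 (MCSE) and 11.66 (PBS) on the liver arrays. Fbp1, fructose-1,6-bisphosphatase, lay at 14.79 (MCSE) and 14.17 (PBS) on the liver arrays (0.61), and its other probe gave 0.55. Pck2, the mitochondrial form of Pck1, was not measured, at 8.14 (MCSE) and 7.96 (PBS). Of 10 measured genes of amino acid and lactate entry, Got1, the cytosolic aspartate aminotransferase, was 1.10 higher and Gpt1 was at -1.001, while Tat, tyrosine aminotransferase, differed by less than 0.01, at 9.62 (MCSE) and 9.61 (PBS).

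The regulators held 6 of the 12 listed genes past 2-fold on the liver arrays, Ppargc1a among them. Of 20 measured regulators, 6 (30.0%) passed 2-fold upward with MCSE on the liver arrays and 0 downward. The median of the 20 was 0.33. Sirt1 (0.93), Igfbp1 (0.64) and Nr3c1 (0.30) reached the array median on the MCSE liver array alone, which fixed their sign. The median of 0.33 therefore partly reflects the filter. By brightest probe, 8.27% of 11342 measured genes passed 2-fold upward and 6.01% downward, around a median of -0.02. Nr4a1, an orphan nuclear receptor that cAMP induces, was 2.42 higher, at 12.41 (MCSE) and 9.996 (PBS) on the liver arrays. Klf15, a fasting-induced factor that raises amino acid breakdown, was 1.65 higher (11.33 with MCSE and 9.68 with PBS), and Hnf4a, a nuclear receptor of liver and proximal tubule, was 1.53 higher (13.81 with MCSE and 12.28 with PBS). The remaining pair, named after their values were seen, were the C/EBP factors Cebpa (1.24, and 0.74 on its other probe) and Cebpb (1.04).

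Other regulators differed less. Igfbp1, a secreted binding protein that insulin lowers in liver, gave 9.50 (MCSE) and 8.86 (PBS) on the liver arrays, a difference of 0.64. Insr, the insulin receptor, differed by 0.10. Foxo1 was not matched to a probe and is not analysed here. Foxo3, a relative of Foxo1 on the fixed list, differed by 0.11 on its brightest probe and by 2.05 on its other one, which lay at 9.85 (MCSE) and 7.81 (PBS) on the liver arrays, and it was singled out for this gap between probes.

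Glycogen genes and the enzymes of the opposite direction gave 2 genes past 2-fold. Phka2, the liver alpha subunit of phosphorylase kinase, was 1.59 higher with MCSE, though 0.40 on its other probe. The first of these probes reached the array median on the MCSE liver array alone, at 10.53 (MCSE) and 8.94 (PBS). Gaa, the lysosomal glycogen-degrading enzyme, was 1.49 higher. Of 11 measured genes of glycolysis and pyruvate oxidation, 0 passed 2-fold, and the median was -0.18. Without the 5 genes themselves, 8 of 64 measured genes of the 6 lists (12.5%) passed 2-fold upward, Phka2 among them, and 0 downward. Over all measured genes the shares were 8.27% upward and 6.01% downward. The median of the 64 was 0.12. Phka2, Fbp2, Dlat, Sirt1, Nr3c1 and Igfbp1 among them reached the array median on the MCSE liver array alone, which fixed their sign. The median of 0.12 therefore partly reflects the filter.

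**Figure D4:**
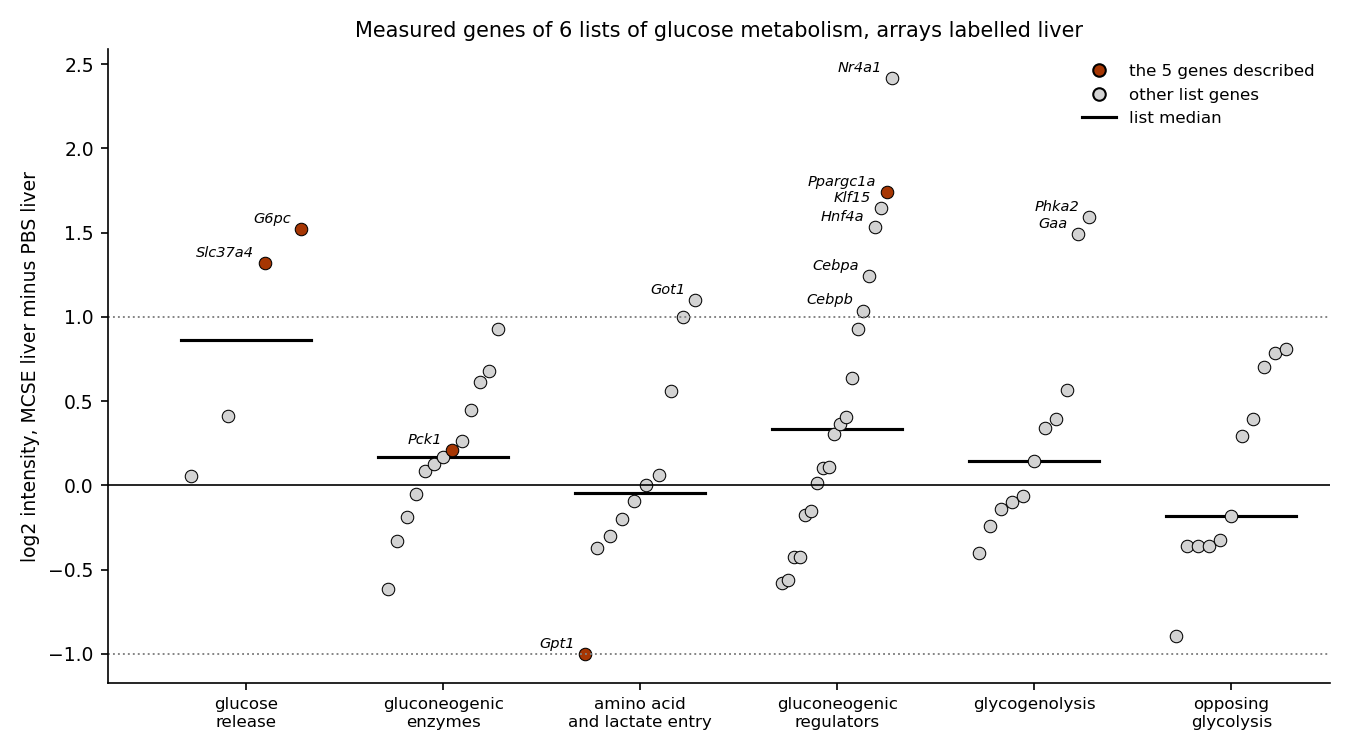
Difference in log2 intensity, MCSE liver minus PBS liver (vertical axis), for the measured genes of 6 lists (horizontal axis) by brightest probe, with the 5 genes in colour, list medians as black bars and 2-fold as dotted lines. Regulators (6 of 20) and glucose release (2 of 4) hold 8 of the 11 genes above the upper line, and 0 of 13 gluconeogenic enzymes lie beyond either line.

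On the muscle arrays 2 of 58 other measured genes of the same lists were 2-fold higher (3.45%) and 3 were lower (5.17%). Of 10711 measured genes, 3.9% were higher and 1.88% lower. Fbp1 was 1.14 higher with MCSE, at 10.06 (MCSE) and 8.93 (PBS) on the muscle arrays, and 1.15 higher on its other probe. Both Fbp1 probes reached the array median on the MCSE muscle array alone. Pcx lay at -1.28 and Insr at -0.72. The other 3 past 2-fold, named after their values were seen, were Ugp2, which makes UDP-glucose for glycogen (1.28), the pyruvate dehydrogenase subunit gene Pdha1 (-1.47) and the transcription factor gene Stat3 (-1.07). Of 6 measured proximal tubule markers, 6 lay above 0 on the muscle arrays, with a median of 0.82 (range 0.39 to 3.20). Slc22a6 and Slc5a12 among them reached the array median on the MCSE array alone, which fixed their sign. On the PBS muscle array 4 of the 11 listed markers lay above the median. Kap gave 12.81 (MCSE) and 9.61 (PBS) on the muscle arrays. Alb gave 10.44 (MCSE) and 12.35 (PBS). Their part in the muscle differences of G6pc, Pck1 and Fbp1 was not tested.

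The tissue labels were compared with 2 arrays a group for liver against muscle only, and the spread within a label holds any effect of MCSE. The adipose arrays were left out because they were known from earlier results to differ widely. G6pc, Gpt1 and probe 2 of Pck1 were higher on the liver arrays than on the muscle arrays, by limma with Benjamini-Hochberg adjustment over 19055 probes (adjusted p under 0.05 and at least 2-fold). These were 3 of the 7 probes, where 12.9% of all tested probes were higher in liver and 8.63% lower. G6pc averaged 13.49 ± 1.08 on the liver arrays and 10.45 ± 0.49 on the muscle arrays (SD, n = 2 each), a difference of 3.03 ± 0.55 (SE) with an adjusted p from limma of 0.0148. Gpt1 averaged 12.89 ± 0.71 on the liver arrays and 10.97 ± 0.08 on the muscle arrays, a difference of 1.93 ± 0.39 (SE, adjusted p from limma 0.0211).

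Pck1 split by probe in the same fit. Probe 2 averaged 15.54 ± 0.28 on the liver arrays and 11.46 ± 0.67 on the muscle arrays, a difference of 4.08 ± 0.40 (SE, adjusted p from limma 0.00297). Probe 1 averaged 15.04 ± 0.15 on the liver arrays and 14.07 ± 0.31 on the muscle arrays, a difference of 0.97 ± 0.30 (SE) that missed the threshold (adjusted p from limma 0.0666). With treatment as a term the adjusted p from limma was 0.0321, and with a prior variance that follows brightness it was 0.0417. In both of these fits probe 1 missed only the 2-fold limit.

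Ppargc1a and Slc37a4 did not pass in the fit without a treatment term. Probe 1 of Ppargc1a averaged 9.83 ± 1.23 on the liver arrays and 11.38 ± 0.46 on the muscle arrays, a difference of -1.55 ± 0.59 (SE, adjusted p from limma 0.105). With treatment as a term in the model it passed as lower in liver (adjusted p from limma 0.0281), as it did without the MCSE liver array (0.0284), where the liver side is the PBS array alone. Slc37a4 averaged 12.79 ± 0.93 on the liver arrays and 13.08 ± 0.13 on the muscle arrays, a difference of -0.29 ± 0.46 (SE, adjusted p from limma 0.655), and its groups overlapped, as did those of Ppargc1a probe 2. For the other 5 probes they did not, where 70% of all tested probes had groups that did not overlap. Without the MCSE muscle array, G6pc (adjusted p from limma 0.0623) and Gpt1 (0.127) no longer passed, nor did they without the PBS muscle array (0.0917 and 0.124). In those fits the muscle side is 1 array, assumed to vary like the liver arrays, and the differences were 3.38 and 2.68 for G6pc and 1.98 and 1.87 for Gpt1. With the adipose arrays in the fit 0 of the 7 probes passed, the adjusted p of G6pc being 0.567.

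Genes with the most similar profile over the 6 arrays were found by Pearson correlation of brightest probes among 13861 other genes. For Ppargc1a they were Nr4a1 (r = 0.998), Tspan8 (0.997) and Srfbp1 (0.993), and for Slc37a4 the clock gene Clock (0.999), Bhlhb2, now Bhlhe40 (0.999), and Plk2 (0.998). G6pc was closest to Pde9a (0.998), Zfand2b (0.996) and Lgmn (0.994), Pck1 to 0610031G08Rik, Mrpl28 and Arhgef7 (each 0.998), and Gpt1 to Blmh, Exosc7 and Lpgat1 (each 0.998). All points share the 6 arrays, the outlying PBS adipose array included. An r of at least 0.9 was reached by 489 genes for Ppargc1a, 578 for G6pc, 1190 for Slc37a4, 1345 for Gpt1 and 1938 for Pck1. Without the PBS adipose array the correlation was 0.996 for Ppargc1a with Nr4a1 and 0.997 for Slc37a4 with Clock (5 arrays).

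**Figure D5:**
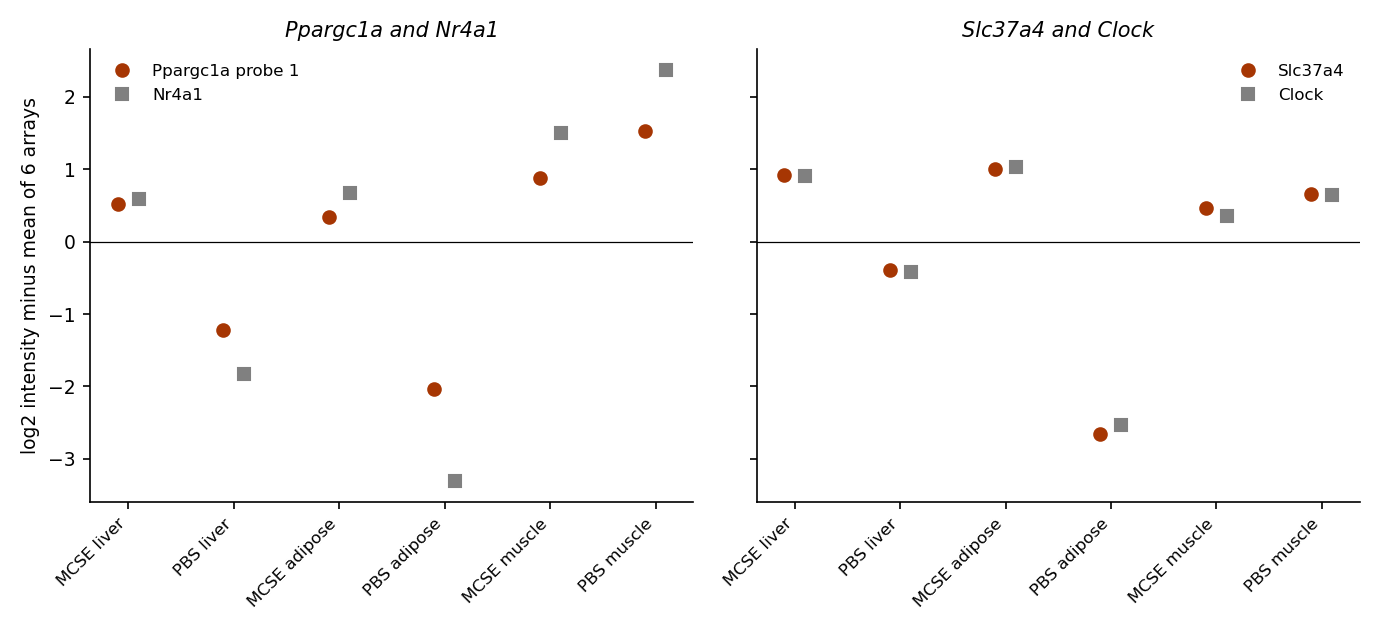
Log2 intensity minus its mean over the 6 arrays (vertical axis) on each array (horizontal axis) for Ppargc1a probe 1 with Nr4a1 and for Slc37a4 with Clock, 1 point an array. In both pairs the PBS liver and PBS adipose arrays lie below the other 4, and Nr4a1 spans a wider range than Ppargc1a.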

How the data were processed

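The authors deposited 1 table of intensities on a linear scale for 29922 probes and 6 arrays of Cy5-labelled amplified RNA, per the labels' protocols. The submitters' processing notes name limma, with no version or role. The background correction, normalization and genome build are not given in the sources used here. All 6 columns had the same median and maximum to within 0.01 on the log2 scale, so the arrays had been brought to 1 distribution. Probes were named through the platform annotation and list genes through RefSeq synonyms.

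Before log2, a floor was set at the 5th percentile of all intensities (214.2). Listed genes were represented by their brightest probe. Genes named followed a stated rule: the 5 genes, up to 4 measured genes past 2-fold in each direction of each list, a set of route genes and markers whatever their value, and the 3 most similar profiles. Exceptions are marked. The genes, lists and rules were chosen with earlier results of these data known.

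The liver and muscle contrast was fitted in R 4.3.3 using limma 3.58.1 (lmFit and eBayes, 4 arrays, 2 residual degrees of freedom, prior of 4.23). On simulated arrays where every probe had an SD of 0.327, the fit recovered 15 of 50 probes changed by 1 log2 unit. It recovered 50 of 50 changed by 2, 3 or 4 units. The liver SDs of G6pc, Slc37a4, Gpt1 and Ppargc1a probe 1 were larger, so the simulation does not show what the fit recovers for them. Whether arrays came from separate mice is not stated, so p-values measure only the spread between these samples. The number of arrays limits the precision. Alternatives were the floor, scaling, filter, threshold, probe rule, model terms and each array left out. Python 3.11.15, numpy 2.4.6, pandas 2.3.3, statsmodels 0.14.6 and matplotlib 3.10.9 were used.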

Additional observations from a re-analysis of the deposited data

Results flagged for a closer look

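Of the 7 probes, 5 had an MCSE minus PBS difference of opposite sign on the liver and muscle arrays, with 1 array per group in each, where 38.2% of the 13898 probes measured on both pairs did. Of the 5, 4 had a difference inside the SD per probe on at least 1 of the pairs, and Ppargc1a probe 1 was outside it on both. Slc37a4 was at 1.32 on the liver arrays and -0.19 on the muscle arrays. Pck1 probe 2 was at -0.40 on the liver arrays and 0.95 on the muscle arrays, whereas probe 1 had the same sign on both. Gpt1 was at -1.001 on the liver arrays and 0.11 on the muscle arrays. Ppargc1a probe 1 was at 1.74 on the liver arrays and -0.65 on the muscle arrays, and probe 2, a dim probe, at 0.56 on the liver arrays and -0.52 on the muscle arrays. The differences between the tissues were not tested.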

How the results depend on the processing

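The differences of the 7 probes on the liver arrays moved by less than the SD per probe (0.607) with no floor, 32 added before log2, quantile normalization, centring on the median or removal of the trend with brightness. The count of probes 2-fold higher (3) was the same under those settings, no filter, an upper quartile filter and a 1.5-fold threshold. The count of probes 2-fold lower, and likewise of pathway genes 2-fold lower, was 0 with 32 added, with centring and with the trend removed, since Gpt1 lies at the limit. A 1.5-fold threshold gave 23 pathway genes, 20 higher and 3 lower, against 12 at 2-fold. For liver against muscle, 4102 probes and 3 of the 7 passed limma. With all 6 arrays 50 probes and 0 of the 7 passed, with no filter on dim probes 2139 and 1, and with treatment as a term, which pairs the liver and muscle arrays of the same treatment, 6054 and 4. Leaving out 1 array gave 605 to 4833 probes and 1 to 4 of the 7, the lowest without the PBS muscle array (605) and the MCSE muscle array (676). The causes were not tested. Ppargc1a probe 1 passed as lower in liver with treatment as a term (adjusted p from limma 0.0281) or without the MCSE liver array (0.0284). A side left with 1 array is assumed to vary like the other. Slc37a4 changed sign without the PBS liver array, at 0.37 against -0.29, and did not pass in either. The labels number no replicates.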

Other observations

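These readings, chosen after their values were seen, are given without explanation. The G6pc probe was bright on the PBS adipose array (12.09, percentile 92.8), where Pck1 probe 1 lay at 8.84, Slc2a2 at 7.98, Alb at 8.84 and Fbp1 at 9.05. The Hnf4a probe was as bright on the muscle arrays, at 12.83 (MCSE) and 12.34 (PBS), as on the PBS liver array (12.28), although this receptor is known from liver, kidney and gut. The probe for Gapdh, a glycolytic enzyme that most cells make in abundance, lay between 7.88 and 8.30 on all 6 arrays, below the median of all probes. On the muscle arrays the Foxo3 probe that was the dimmer over the 6 arrays gave 2.12, at 12.12 with MCSE and 10.0011 with PBS, where the other gave 0.22.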
